A study of Caenorhabditis elegans with 2 samples.

Results

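The small nuclear RNA (snRNA) genes of Caenorhabditis elegans were taken as all genes of that biotype in Ensembl release 115 on the 6 nuclear chromosomes, which gave 129 of 46890 annotated genes. Binding near them of CEBP-2, a basic leucine zipper protein of the C/EBP family, was read from peak lists of chromatin immunoprecipitation and sequencing (ChIP-seq). The study has 1 group with 2 biological replicates. Both are whole young adults, 64 h old, of strain OP331, synchronised as L1 larvae starved after bleaching. The strain carries the transgene wgIs331, in which cebp-2 (C48E7.11) is joined to TY1, EGFP and 3xFLAG tags, together with a functional unc-119 gene, in animals mutant for unc-119(ed3). Chromatin sheared by sonication to 200 to 800 bp was precipitated with an antibody against GFP. The labels do not say how many animals were pooled or which cells express the tagged protein, and no control immunoprecipitation was used here. All values below therefore describe 1 condition, and positions refer to the build ce11, counted from 1.

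The snRNAs are the RNA core of the spliceosome. U1 pairs with the 5' splice site, U2 with the branch site, U5 holds the exon ends, and U4 delivers U6, which forms much of the catalytic centre. Nematodes also carry splice leader RNAs: SL1 and SL2 donate their first bases to the 5' ends of many messenger RNAs by trans-splicing, SL2 mainly to downstream genes of operons, and SmY RNAs are nematode RNAs with a binding site for Sm proteins that are associated with that process. In animals, RNA polymerase II transcribes most snRNA genes and RNA polymerase III transcribes U6, and both kinds of promoter hold a proximal sequence element bound by the snRNA activating complex.

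By gene name or sequence, 14 genes fell into U1, 19 into U2, 5 into U4, 12 into U5, 23 into U6, 12 into SL1 (sls-1), 18 into SL2 (sls-2) and 10 into SmY, and 16 had no class. A gene without a telling name was classed when it was at least 80% identical, over at least 80% of the shorter gene, to a cluster whose members hold a known element of that snRNA. The U1 class includes mir-1831, a 22 bp annotation inside the U1 gene sup-39, and T27E4.22, which overlaps T27E4.12, so 2 of its members are not separate places. The sequences below show 1 gene each of U1, U2, U4, SL2, SL1, SmY and the genes with no class, written 5′ to 3′ as DNA in build ce11. For most classes the gene shown is the one of highest signal in the main list described below. Y54G9A.8 and sls-2.2 are the second U2 and SL2 genes by signal, and sls-1.2 stands for the SL1 genes. In capitals are the U1 bases that pair with the 5' splice site, the U2 bases that pair with the branch site, the first bases of U4, the spliced leader of the sls genes, and the Sm site of smy-10. M163.13 has no class and is in lower case throughout.
T08G5.11 (chrV:14028471-14028635, - strand): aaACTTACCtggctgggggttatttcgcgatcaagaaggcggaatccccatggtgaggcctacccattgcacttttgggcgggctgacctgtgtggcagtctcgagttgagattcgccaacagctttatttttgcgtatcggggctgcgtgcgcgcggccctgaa
Y54G9A.8 (chrII:13717567-13717753, - strand): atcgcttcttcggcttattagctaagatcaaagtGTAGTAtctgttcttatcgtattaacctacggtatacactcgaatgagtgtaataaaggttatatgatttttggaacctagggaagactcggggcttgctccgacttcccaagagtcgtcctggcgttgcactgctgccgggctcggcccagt
C52E4.8 (chrV:11980118-11980261, + strand): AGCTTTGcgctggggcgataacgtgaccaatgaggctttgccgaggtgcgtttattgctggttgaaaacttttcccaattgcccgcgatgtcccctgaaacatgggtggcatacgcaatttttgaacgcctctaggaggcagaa
sls-2.2 (chrII:5543598-5543707, + strand): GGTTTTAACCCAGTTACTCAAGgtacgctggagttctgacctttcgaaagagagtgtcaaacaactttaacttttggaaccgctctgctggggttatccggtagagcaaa
sls-1.2 (chrV:17131064-17131161, - strand): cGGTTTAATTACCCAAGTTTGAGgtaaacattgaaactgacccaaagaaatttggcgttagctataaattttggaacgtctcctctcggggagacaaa
smy-10 (chrIV:13601636-13601725, + strand): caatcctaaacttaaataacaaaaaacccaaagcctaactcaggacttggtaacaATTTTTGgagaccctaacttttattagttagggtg
M163.13 (chrX:14476867-14476946, + strand): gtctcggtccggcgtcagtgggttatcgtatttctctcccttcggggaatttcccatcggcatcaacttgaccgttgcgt

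Of the 129 snRNA genes, 17 (13.2%, 95% Wilson interval 8.39 to 20.1%) shared 1 bp or more with a peak of the main list, the authors' thresholded list for both replicates. Across all 46890 genes the share was 2.96%. The U1 gene sup-39 and mir-1831, the annotation inside it, were touched by the same peak and are counted separately here and below. The 17 genes thus had 16 distinct highest peaks. These 17 genes were touched by 19 of the 1419 main peaks, of which 5 overlapped no other annotated gene, 8 overlapped a protein-coding gene and none overlapped a tRNA, snoRNA or rRNA gene. The authors' conservative list overlapped 14 snRNA genes, against 2.37% of all genes, and 13 of these were in the main list too. The intervals cover the counting of genes only, and gene copies that share sequence are not independent. In U2 and U5, genes of near-equal signal fell on opposite sides of the authors' threshold, as given below.

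The ranked list behind the main list holds 112494 peaks over 29.7% of the genome, so an overlap there says only that a place was listed. It touched 80 snRNA genes (62.0%, 53.4 to 69.9%), against 53.5% of all genes, and the other ranked list touched 76, against 51.8%. The median over all 129 genes of the highest signal value, counting unlisted genes as lowest, was 20.6 (95% interval by order statistics 13.2 to 31.1), against 14.2 over all genes, a value inside that interval. Among other genes no longer than 187 bp, the length of the longest snRNA gene, and without piRNA genes, 57.2% were in the ranked list, which lies inside the interval of the snRNA genes too. The signal value is the authors' own measure for each peak, in the unit of their peak caller, and is used here within a list. The 17 genes of the main list ranged from 61.9 to 162.2, each above 97.9 to 99.9% of the peaks of the ranked list. The other 63 listed genes ranged from 3.26 to 69.2, so the 2 sets overlapped in signal. The authors' score, which rises with reproducibility, reached its ceiling of 1000 at 14 of the 17 genes, and 15 of the listed genes had the lowest score of the list, 70. No peak of any list, the replicates' own included, touched 36 genes, of which 11 were sls-1 genes. The same count over all genes was not made, so whether 36 is many or few is unknown.

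**Figure D1:**
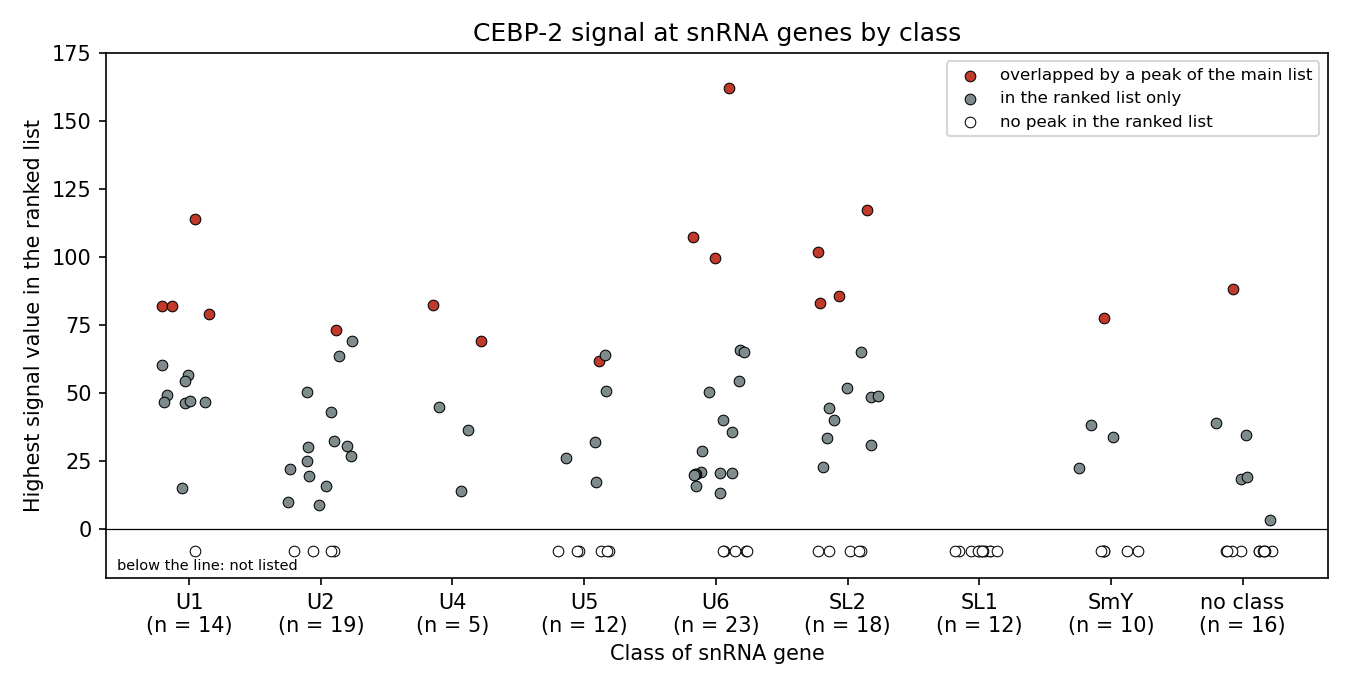
Highest signal value in the ranked list (vertical axis, authors' unit) for each of the 129 snRNA genes, by class; points under the line at 0 have no peak in that list. Red points, which are overlapped by the main list, lie between 61.9 and 162.2, and all 12 SL1 genes lie under the line.

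The U1 genes had the broadest coverage among the larger classes: 13 of 14 were in the ranked list and 4 were in the main list (28.6%, 11.7 to 54.6%). Among these 4, sup-39 and mir-1831 are the same place. Highest was T08G5.11 on chromosome V, with a signal of 114.1. Its own ranked values were 36.3 in replicate 1 and 61.4 in replicate 2. The other main-list places were sup-39 with mir-1831 (82.1, in an intron of C15F1.5) and sup-6 (79.0, in an intron of F58G1.7). Both sup genes are known from mutations in U1 RNA that suppress a splice site mutation in unc-73. At sup-39 the values were 22.8 in replicate 1 and 67.5 in replicate 2, and at sup-6 they were 32.7 in replicate 1 and 45.9 in replicate 2. The U1 gene next below was H27M09.6, with a signal of 60.5 and a score of 704. The other listed U1 genes lay between 15 and 56.8. The remaining U1 gene, F40G12.13, was not in the ranked list and had 12.7 in the own list of replicate 1.

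U2 had 15 of 19 genes in the ranked list but 1 in the main list. This was F56H6.16 (73.2; score 878), one of 9 genes of identical sequence, with 33.7 in replicate 1 and no listed peak in replicate 2. Y54G9A.8 was close to it, with 69.2, but had a score of 617 and was outside the main list. It too was listed in replicate 1 alone, at 36.4. Y57G11C.35 had 63.8 and a score of 774. The main-list gene and its neighbour thus differed little in signal, and neither was listed in replicate 2. All 5 U4 genes were in the ranked list and 2 of them in the main list. C52E4.8 had 82.3, and 43.8 in replicate 1 against 57.7 in replicate 2. F10D2.13, in an intron of ugt-37, had 69.3, with 25.4 in replicate 1 and 44.5 in replicate 2. T11F9.15, which has the same sequence as C52E4.8, followed with 44.9 and a score of 431.

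Of the U5 genes, 6 of 12 were in the ranked list and 1 in the main list, F38E11.10 (61.9; score 1000). It had 34.0 in replicate 1 and no listed peak in replicate 2. F07C6.5, in an intron of pin-2, had a higher signal of 64.2 but a score of 686. It was listed in replicate 2 alone, at 46.2. Y69A2AR.36, in an intron of gfrl-1, had 50.9. In this class the order by signal and the order by score thus disagreed at the threshold.

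The highest snRNA signal of the series, and 3 of the 6 highest, belonged to U6 genes on chromosome III, although 20 of the 23 U6 genes were outside the main list. W05B2.8, in an intron of the dynein gene dhc-4, had 162.2, with 46.8 in replicate 1 and 109.1 in replicate 2, and was the 1 snRNA gene found in the own thresholded list of both replicates. A second main peak touched it with a signal of 9.80. F54D8.7, outside protein-coding genes, had 107.3, with 36.8 in replicate 1 and 68.5 in replicate 2. C28A5.7, in an intron of C28A5.6, had 99.8, with 42.6 in replicate 1 and 64.7 in replicate 2. These 3 genes kept the same order in the list of both replicates and in replicate 2, but not in replicate 1. R07E5.16, in an intron of mpc-1 and also on III, had 65.8 and a score of 680, with 12 in replicate 1 and 54.1 in replicate 2; it was in the own thresholded list of replicate 2. K09B11.15 had 65.1, the highest of the 6 U6 genes K09B11.11 to K09B11.16 in introns of mam-3, none of which was in the main list. Y9C9A.111 was in the conservative list with 94.6 but not in the main list or the ranked list behind that; replicate 1 listed it at 38.3.

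The 17 U6 genes that share one sequence over the whole gene, W05B2.8, F54D8.7, C28A5.7, R07E5.16, K09B11.15 and Y9C9A.111 among them, differed widely in signal. Of these, 13 were in the ranked list, between 15.9 and 162.2, and 3 were in the main list. The 9 identical U2 genes ranged from 8.94 to 73.2 over the 8 that were listed, with 1 in the main list. Reads inside identical genes cannot be placed by sequence unless they reach the flanks. The share of 50-base stretches touching the gene that occur once in the genome was 28.5 to 61.6% for the 17 U6 genes and 9.83 to 32.2% for the 9 U2 genes. It was 61.6% at W05B2.8, 58.7% at F54D8.7 and 28.5% at C28A5.7. How the authors treated reads with several matches is not given in the sources, and the part of sequence identity in these values was not tested.

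The splice leader classes differed. Of the 18 SL2 genes, 13 were in the ranked list and 4 in the main list (22.2%, 9.0 to 45.2%). The highest was sls-2.4 on chromosome I (117.4), with 34.8 in replicate 1 and 76.8 in replicate 2. It was followed by sls-2.2 on II (101.7), with 44.4 in replicate 1 and 67.2 in replicate 2. On III, sls-2.15 had 85.6, with 28.3 in replicate 1 and 60.5 in replicate 2, and sls-2.8 had 83.0, with 42.5 in each replicate. All 4 thus had listed peaks in both replicates. Just below the threshold was sls-2.12, with 65.3 and a score of 803, where no peak of the main list scores under 830. At sls-2.1 the replicates diverged: replicate 1 listed it at 70.9, in its own thresholded list, replicate 2 did not list it, and the ranked list gave 22.8.

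None of the 12 SL1 genes was in the ranked list or in either thresholded list of both replicates; the Wilson interval of 0 of 12 reaches 24.2%. One of them, sls-1.12, had a peak of 2.98 in the own ranked list of replicate 2. The SL1 genes lie in tandem on V and are identical over the gene, and no 36-base or 50-base stretch that touches them occurs once in the genome. A lack of listed peaks there therefore cannot be told apart from a lack of reads that can be placed.

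Of the SmY genes, 4 of 10 were in the ranked list and 1 in the main list, smy-10 on IV. It had 77.7 and a score of 934, with 30.4 in replicate 1 and 39.9 in replicate 2. The next, smy-6 and smy-9, had 38.2 and 33.9. The 16 genes with no class gave 6 listed genes and 1 in the main list. This was M163.13 on X, a gene of 80 bp outside protein-coding genes, with 88.2. It had 78.6 in replicate 2 and no listed peak in replicate 1, and what each replicate adds to its place was not tested. It was also in the conservative list, over both replicates, at 88.2 with a score of 1000. It was followed by B0213.24, in an exon of cyp-34A9, with 39.2, and by F56A12.5 with 34.8.

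**Figure D2:**
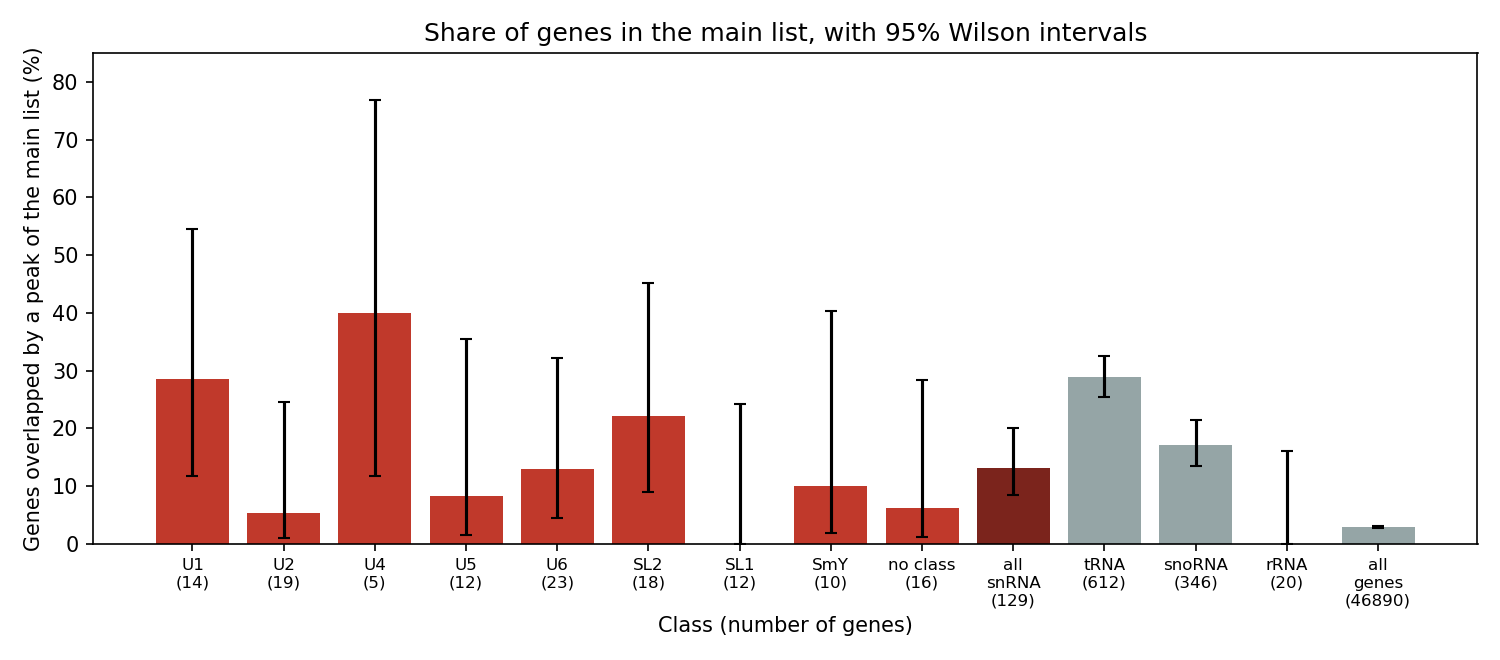
Share of genes overlapped by a main-list peak (percent, bars from 0) with 95% Wilson intervals, for the classes of snRNA genes, all snRNA genes, other small RNA genes and all genes; the number of genes is in brackets. The class intervals are wide and overlap each other, while the interval of all snRNA genes, 8.39 to 20.1%, lies above the 2.96% of all genes.

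Other genes for small RNAs gave higher or lower shares than the snRNA genes. In the main list were 13.2% of snRNA genes, against 28.9% of tRNA genes (25.5 to 32.6%, 612 genes), 17.1% of snoRNA genes (13.5 to 21.4%, 346 genes) and 0 of 20 rRNA genes. Among the 7780 other genes no longer than the longest snRNA gene, 187 bp, piRNA genes left out, the share was 5.72% (5.23 to 6.26%). The median ranked signal was 20.6 over snRNA genes, against 50.9 over tRNA genes and 24.1 over snoRNA genes. The interval of the snRNA genes thus overlapped that of the snoRNA genes and lay below that of the tRNA genes. These are side-by-side shares without a test.

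Most snRNA genes of the main list had a listed peak in both replicates. Of the 17 genes, 14 had listed peaks in both own ranked lists, and the value was higher in replicate 2 at 13 of them and the same to 3 significant digits at sls-2.8. Since each replicate's list has its own scale, that order is no comparison of binding. The own values at the 17 genes ran from 22.8 to 46.8 in replicate 1 and from 39.9 to 109.1 in replicate 2. Of the 129 genes, 61 were in the ranked list of replicate 1, against 40.8% of all genes, and 62 in that of replicate 2, against 45.0%. Both listed 46 genes and neither listed 52. Matching counts over all genes, or over all main-list genes for the 14 of 17, were not made. Over those 46 genes Spearman's rho between the own values was 0.333, across genes that share sequence and depth. The replicates' own thresholded lists were much shorter and held 3 snRNA genes in replicate 1, against 0.595% of all genes, and 10 in replicate 2, against 0.951%. Of the 17 main-list genes, 10 were in an own thresholded list and 7 in neither. In these counts sup-39 and mir-1831, touched by the same peak, stand as separate genes.

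**Figure D3:**
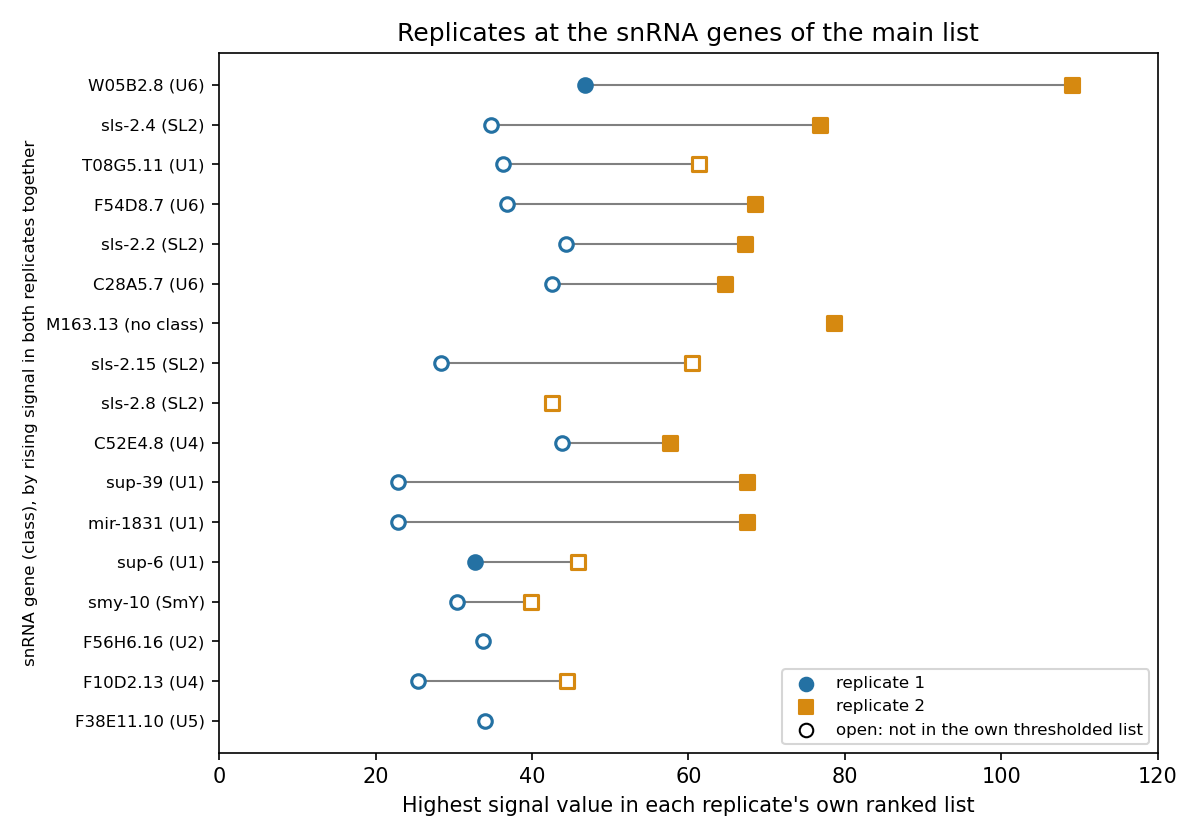
Highest signal value in the own ranked list of replicate 1 (circles) and replicate 2 (squares) for the 17 snRNA genes of the main list, ordered by signal in both replicates together; filled marks are also in that replicate's own thresholded list, and a missing mark means no listed peak. Only W05B2.8 is filled in both, M163.13 has no mark for replicate 1, and F56H6.16 and F38E11.10 have none for replicate 2; at sls-2.8 the marks coincide.

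Summits lay on both sides of the 5' end. Of the 80 listed genes, the summit of the highest peak was upstream of the gene at 35, inside it at 29 (36.2%) and downstream at 16. Genes that share a peak are counted separately, so the summit at sup-39 counts as inside that gene and as downstream of mir-1831. The 3 main-list U6 genes had their summits at 15, 24 and 26 bp inside the 5' end. At sup-39 and sup-6 the summits lay 30 and 50 bp inside. At T08G5.11 the summit was 153 bp inside, near the 3' end of this 165 bp gene, and at sls-2.4 and sls-2.15 it lay beyond the 3' end. At sls-2.8, F38E11.10, C52E4.8 and F56H6.16 it lay 54 to 92 bp upstream. Peaks of the main list are mostly 270 bp wide and the sheared fragments 200 to 800 bp long, so such offsets do not resolve the promoter from the gene body.

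**Figure D4:**
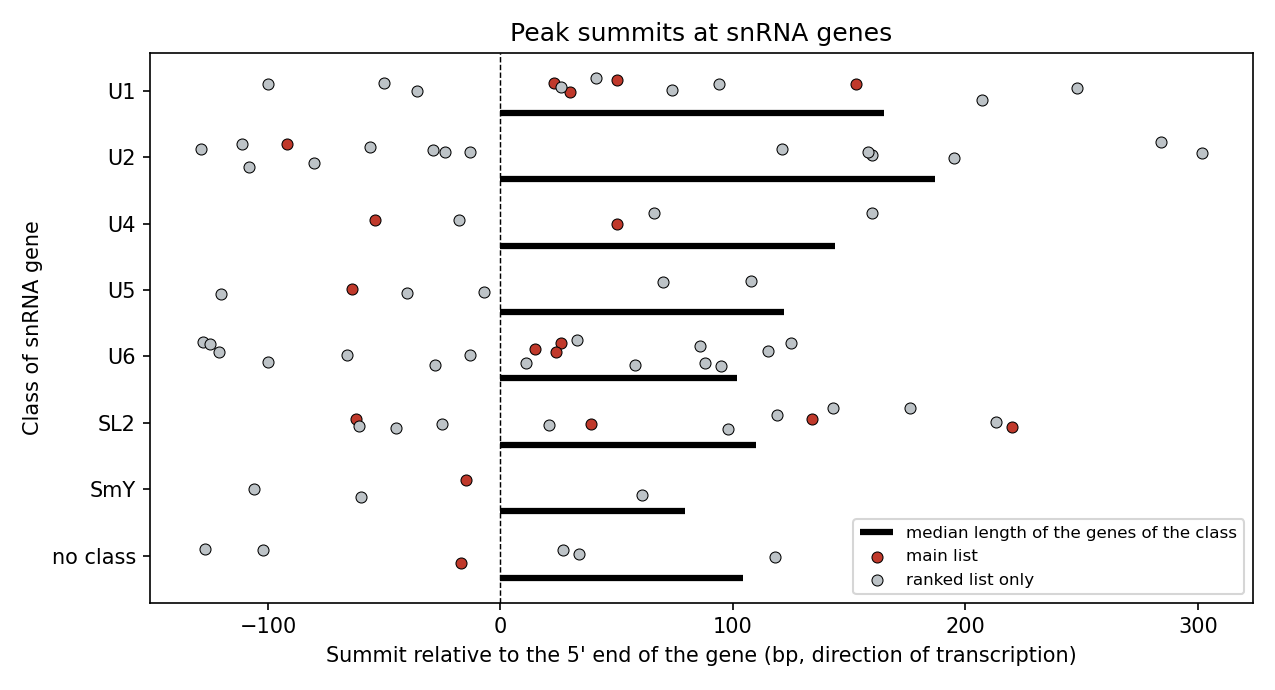
Position of the summit of the highest ranked-list peak relative to the 5' end of each listed snRNA gene (bp, in the direction of transcription), by class; black bars give the median gene length and red points are in the main list. The 3 red points of U6 lie together between 15 and 26 bp, while those of SL2 run from -62 to 220 bp.

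Short words recurred in the 100 bp before the snRNA genes. The 4 most frequent 8-base words on the sense strand were CGGAACCC, TGTCGGTA, ATTTCATA and AAACCCGC. Left out were words whose start or end matched the end or start of a more frequent one over 5 bases or more. CGGAACCC and AAACCCGC still share the run AACCC and lie at like distances, so they need not be separate elements. The 4 words were picked for being frequent before these 129 genes, many of them near-identical copies. An excess over other genes thus follows largely from the choice, and the shares are a description. CGGAACCC stood before 31 of 129 snRNA genes (24.0%), against 0.0770% of the 46761 other genes, and its first base lay 56 to 74 bp upstream. TGTCGGTA stood before 23 (17.8%), against 0.0556%, at 47 or 48 bp upstream. AAACCCGC stood before 15 (11.6%), against 0.105%, at 56 to 68 bp upstream. ATTTCATA stood before 16 (12.4%), against 0.840%, and was less fixed in place, from -78 to -14 bp. The words were spread unevenly: CGGAACCC stood before 8 of 14 U1 genes, 6 of 12 U5 genes, 5 of 10 SmY genes, 5 of 18 SL2 genes and 0 of 19 U2 genes, whereas 13 of 19 U2 genes had TGTCGGTA. No SL1 gene had any of the 4. The words were counted as letters, with no test of what binds them. The windows below are the 100 bp before U1, U4, U5, SL2 and U2 genes, and end at the base before the gene. The 4 words are in capitals. They show that F38E11.10, in the main list, and F07C6.5, just outside it, both hold such words.
T08G5.11 (chrV:14028636-14028735, - strand): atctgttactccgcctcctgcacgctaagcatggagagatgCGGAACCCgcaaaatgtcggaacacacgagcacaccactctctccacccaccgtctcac
sup-6 (chrII:12944968-12945067, - strand): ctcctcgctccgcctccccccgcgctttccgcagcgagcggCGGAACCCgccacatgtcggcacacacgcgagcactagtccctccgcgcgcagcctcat
F10D2.13 (chrV:7142859-7142958, - strand): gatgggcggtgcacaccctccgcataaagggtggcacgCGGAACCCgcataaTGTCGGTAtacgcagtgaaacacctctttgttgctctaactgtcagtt
F38E11.10 (chrIV:9444542-9444641, + strand): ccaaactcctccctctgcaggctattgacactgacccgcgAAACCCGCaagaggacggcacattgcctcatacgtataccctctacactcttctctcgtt
F07C6.5 (chrIV:12795484-12795583, + strand): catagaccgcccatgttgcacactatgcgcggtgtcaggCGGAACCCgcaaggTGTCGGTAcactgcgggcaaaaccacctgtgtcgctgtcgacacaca
sls-2.15 (chrIII:11090910-11091009, + strand): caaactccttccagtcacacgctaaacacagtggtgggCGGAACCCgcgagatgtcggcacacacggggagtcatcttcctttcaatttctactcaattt
Y54G9A.8 (chrII:13717754-13717853, - strand): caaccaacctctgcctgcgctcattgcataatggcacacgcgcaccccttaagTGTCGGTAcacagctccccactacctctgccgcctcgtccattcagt

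Genes with one of the words and genes without it were both among the peaks. Of 73 snRNA genes with any of the 4 words, 13 were in the main list and 50 in the ranked list. Of the 56 without, 4 were in the main list and 30 in the ranked list; 12 of those 56 were the SL1 genes. The single words went both ways. In the main list were 7 of 31 genes with CGGAACCC against 10 of 98 without, and 4 of 15 with AAACCCGC against 13 of 114. For TGTCGGTA it was 2 of 23 against 15 of 106, and for ATTTCATA 1 of 16 against 16 of 113. The 4 main-list genes with none of the words were sls-2.2, C52E4.8, smy-10 and M163.13. TATAAA, the core letters of a TATA box, stood before 9 of 23 U6 genes, before 1 of 19 U2 genes and before 2 genes with no class. Over all snRNA genes its share was 9.30%, against 10.9% of other genes. The next windows set the 3 main-list U6 genes and M163.13 beside K09B11.15, a U6 gene of the same sequence as W05B2.8 outside the main list. In capitals are the 4 words, the TATA box (TATAAA, or its variant TATATAA), the palindrome of the C/EBP motif described below, and the run GTCTGC, which the 4 main-list genes share. GTCTGC does not set main-list U6 genes apart. The U6 genes R07E5.16 and K09C6.12, outside the main list, hold it too, as given at the end. Other forms of the C/EBP motif stay in lower case, as does ttacataa before K09B11.15, which thus holds a match too.
W05B2.8 (chrIII:10989579-10989678, + strand): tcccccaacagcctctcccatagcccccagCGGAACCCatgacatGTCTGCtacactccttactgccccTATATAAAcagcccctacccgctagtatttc
F54D8.7 (chrIII:5080899-5080998, - strand): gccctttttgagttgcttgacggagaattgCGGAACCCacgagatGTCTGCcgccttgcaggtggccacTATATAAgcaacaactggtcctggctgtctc
C28A5.7 (chrIII:4426956-4427055, - strand): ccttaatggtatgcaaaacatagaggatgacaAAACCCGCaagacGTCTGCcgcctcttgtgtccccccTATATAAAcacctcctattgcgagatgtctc
M163.13 (chrX:14476767-14476866, + strand): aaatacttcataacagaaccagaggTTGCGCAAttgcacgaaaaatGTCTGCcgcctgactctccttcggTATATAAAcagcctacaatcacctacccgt
K09B11.15 (chrIV:13443497-13443596, - strand): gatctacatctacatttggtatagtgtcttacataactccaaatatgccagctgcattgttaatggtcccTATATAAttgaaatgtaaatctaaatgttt

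The C/EBP motif was about as frequent near snRNA genes as near other genes. The general C/EBP consensus, of which TTGCGCAA is a palindromic form, was sought on both strands within 150 bp to either side of the 5' end. It was present at 13 snRNA genes (10.1%), against 8.17% of other genes, and at 1 of the 17 main-list genes. That gene was M163.13, whose match is TTGCGCAA, with its first base at position -75 from the 5' end. TTGCGCAA was at no other snRNA gene, and 0.483% of other genes held it. TGATGCAA and TGACGCAA were in no snRNA window, against 1.23% and 0.543% of other genes. The windows follow the 5' end and not the peak. At T08G5.11 and sls-2.15 the summits lay outside them, 153 and 220 bp past the 5' end. The share of all main-list genes or peaks with the motif was not computed, so 1 of 17 shows no lack of it under these peaks. The matches at 4 U6 genes of the mam-3 cluster and at 4 U1 annotations of the T27E4 cluster lay upstream, at like positions within each cluster. T27E4.22 and T27E4.12 overlap and share 1 match. Sequence identity was measured over the genes only, so whether these upstream sites are copies of one sequence was not tested.

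The snRNA genes in the main list were on all 6 chromosomes: 5 of 13 on III, 4 of 16 on II, 2 of 16 on I, 3 of 40 on V, 2 of 41 on IV and 1 of 3 on X. By place, 10 of 62 genes outside protein-coding genes, 7 of 55 in introns and 0 of 12 that overlap an exon were in the main list. The 40 genes on V include the 12 SL1 genes, which hold no 50-base stretch that occurs once. Shares of all genes by chromosome or place were not computed, so these counts show no enrichment or depletion. The share of 50-base stretches that occur once had a median of 76.1% over main-list genes, 65.0% over genes in the ranked list alone and 81.2% over unlisted genes.

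Of 61 protein genes of the snRNA pathway found by symbol, 5 (8.20%) had a main summit within a window that ran from 1000 bp before to 200 bp after the 5' end, against 2.36% of all protein-coding genes. By list these were 2 of 7 Sm proteins, which form the ring on snRNAs, 2 of 7 LSM proteins, whose nuclear ring binds U6, and 1 of 11 Integrator subunits, which cut snRNA transcripts at the 3' end. None was among 8 genes listed for the snRNA activating complex, 4 listed for the splice leader particle or 2 for the SMN complex, which loads Sm rings. None was among 22 genes listed for the U1, U2 and U5 particles, a list that also took in proteins of U4 and U6. The lists were set by symbol, and whether each gene belongs to its particle was not checked. The 5 genes were snr-6 (70.3), snr-4 (82.3 and 77.0), lsm-6 (69.0), lsm-8 (73.3) and ints-4 (90.2). The peaks at snr-4 are those that touch the U4 gene C52E4.8, with summits at -341 and -658 bp from the 5' end of snr-4, so the 2 genes share them. The peak assigned to lsm-8 lies over sqd-1. Those of lsm-6 and ints-4 had summits 0 and 49 bp inside the 5' end, over the genes themselves.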

How the data were processed

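Each deposited list holds peaks called by the authors on the build ce11. Each peak has a deposited signal value, whose normalization is not stated, and a deposited score up to 1000; lists were ranked or thresholded by the irreproducible discovery rate, per the file headers. The ranked lists also carry a deposited −log10 of the global rate, which was not used. The sources used here name no aligner, caller or setting. The files hold no read counts, so depth per sample is unknown. The main list held 1419 peaks, the conservative list 1062, the ranked list behind the main list 112494, and the own thresholded lists 254 for replicate 1 and 386 for replicate 2. The main list was found whole in its ranked list.

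Genes came from Ensembl release 115 and sequence from RefSeq, of the same assembly. All 129 snRNA genes matched a RefSeq symbol. Sequences of the U5 and U6 genes themselves are not reported here. A gene was in a list when it shared 1 bp or more with a peak, and its value is the highest among such peaks. Classes, copies, summits and words were computed with Python 3.11.15, numpy 2.4.6, pandas 2.3.3, scipy 1.17.1 and Biopython 1.88; the overlap search was tested on simulated data. With 1 group, no test between conditions exists, and shares carry 95% Wilson intervals. Named genes are those in the main list, the 3 highest of each class, the 20 highest in all, those next to the threshold, and pathway genes with a main summit. The members, lists and words were chosen with earlier results of these data known. Replicates are labelled as biological replicates, and the spread between them is given as 2 values.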

Additional observations from a re-analysis of the deposited data

How the results depend on the processing

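Against 17 genes and 19 peaks in the main list, the replicates' own thresholded lists gave 3 to 10 genes and 3 to 9 peaks, a summit inside the gene gave 8 genes and 8 peaks, and genes with no identical copy gave 11 of 83 genes and 11 peaks. With the conservative list, peaks above the median signal or 150 bp added to each gene, the counts were 14, 14 and 21 genes and 17, 14 and 24 peaks. Counts over all genes were not made for the summit, signal, 150 bp and copy settings. The counts under those settings thus show no enrichment or depletion. In the own lists the counts were 1 to 2 genes for U1, 0 to 1 for U4, 1 to 4 for U6, 1 to 2 for SL2, 0 to 1 for genes with no class, and 0 to 0 for U2, U5 and SmY. The conservative list held 2 U1, 0 U2 and 1 U4 genes. Peaks above the median signal left 0 U2, 1 U4 and 0 U5 genes. A summit inside the gene left 0 U2, 1 U4, 0 U5, 1 SL2 and 0 SmY genes and 0 with no class. Adding 150 bp gave 2 U2, 2 U5 and 2 SmY genes. Among genes with no identical copy there were 0 U2, 1 U4, 0 U5 and 0 U6 genes, and no SL1 gene remained to count. SL1 stayed at 0 in the lists and overlaps where it could be counted.

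The share of listed genes, 62.0% in the ranked list, was 58.9% in the other ranked list, 47.3 to 48.1% in the own lists, 24.0% with the summit inside the gene, 76.7% with 150 bp added and 65.1% among genes with no identical copy. Over all genes, shares were not computed for the summit rule, the added 150 bp or the lack of copies. Those shares thus show no enrichment or depletion. The median signal of 20.6 became 33.7 with 150 bp added; each own list, and the summit rule, listed fewer genes than it left out, so no median could be given there. The share of summits inside the gene was 36.2%, 34.4 to 38.7% in the own lists and 26.3% with 150 bp added. The causes of these changes were not tested. No paired analysis was possible because the series has 1 group. With no read counts, the smallest peak that could have been listed at any gene is unknown.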

Other observations

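The upstream word CGGAACCC stood before 36 genes that are not snRNA genes, and 7 of these (19.4%) were in the main list, against 2.92% of the other genes without the word. The remaining words went both ways. For AAACCCGC the count was 3 of 49 (6.12%, against 2.93%). For ATTTCATA it was 5 of 393 (1.27%, against 2.95%), and for TGTCGGTA 0 of 26 (against 2.94%). Of the 36 genes with CGGAACCC, 20 are typed as snoRNA genes, and 6 of these were in the main list (30%), against 17.1% of all snoRNA genes. Of the 16 others, 1 was in the main list, rpr-1. By signal, the highest of the 7 was rpr-1, for the RNA of RNase P, with a ranked signal of 251.8, and 90.8 in replicate 1 and 160.7 in replicate 2. It was followed by Y67A10A.14 (229.3) and F59C6.15 (141.8), which had 93.7 and 64.4 in replicate 1 and 138.3 and 73.6 in replicate 2. One of the snoRNA genes by type, smy-2 (62.5), carries the name of the SmY family, so a count of SmY genes by name would have 2 in the main list, smy-10 and smy-2. A further smy gene, smy-3 (66.1, also typed as snoRNA), was above smy-2 by signal but not in the main list.

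GTCTGC followed by TATAAA or TATATA stood in the 100 bp before 6 of 129 snRNA genes (4.65%), against 0.0748% of other genes. This pair was chosen because the windows of 4 main-list genes, W05B2.8, F54D8.7, C28A5.7 and M163.13, share it, so its presence at those 4 restates the choice. The other 2 are the U6 genes R07E5.16 (65.8) and K09C6.12 (54.5), both in the ranked list and outside the main list. Of the 35 genes with the pair that are not snRNA genes, 25 were in the ranked list (71.4%), against 53.5% of all genes. In the main list was 1 of the 35 (2.86%), mrpr-1, for the RNA of RNase MRP, against 2.96% of all genes.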
